A study of Mus musculus with 4 samples.

Results

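The 10 genes described here encode members of the BCL2 family, the proteins that decide at the outer mitochondrial membrane whether a cell survives or enters apoptosis. They are 3 survival genes (Bcl2, Bcl2l1 and Mcl1), 2 effectors (Bax and Bak1) and 5 BH3-only genes (Bcl2l11, Bbc3, Pmaip1, Bad and Bid). They were taken by symbol from the count table, where each matched a gene identifier, so that 10 of 55385 listed genes are members. Expression was measured by bulk RNA sequencing of granulosa cells (GCs), the somatic cells around the oocyte, from preantral follicles of Kunming females that were 12 to 14 days old. Follicles were cultured for 6 days in medium with FSH, insulin, transferrin, selenium, fetuin and albumin in both groups, with neurotrophin-4 (NT-4) added in the NT4 group (2 libraries) and not in the Control group (2 libraries). As the study describes it, the GCs were the cumulus cells left once oocytes had been taken out of their complexes, the 2 samples of a group came from independent experiments, and NT-4 was given to the whole follicle rather than on isolated GCs. The labels give no dose, and the study's text names a single NT-4 dose, chosen in a trial of several, for the work after it.

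Effectors such as BAX and BAK form pores in the outer mitochondrial membrane and let cytochrome c out, after which caspases are activated. Survival proteins such as BCL2, BCL-xL (from Bcl2l1) and MCL1 bind and restrain the effectors. BH3-only proteins such as BIM (from Bcl2l11) and PUMA (from Bbc3) carry the stress signal and occupy the groove of the survival proteins, or activate the effectors directly. Death of GCs by apoptosis is the main route by which growing follicles are lost in atresia. FSH and other survival signals are known to hold this death back. These roles are background, and the state of the follicles was not analysed here. The study itself found that follicle survival did not differ among its culture groups at the end of culture, later than the day sampled here.

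The BH3 stretch, a short helix through which family members bind each other, was searched in the longest coding transcript of each member. The pattern, written after the members' values had been seen, was a leucine, any 3 residues, a glycine, alanine or serine, then aspartate and an acidic residue or glycine. It occurred once in 9 of 10 members and not in Pmaip1. A miss shows only that this pattern was not met, and not that the BH3-only protein of Pmaip1 lacks a BH3 stretch. The coding bases of 6 of these members, from the 3 classes, are printed as examples. The leucine, the small residue and the aspartate were required by the pattern, so their presence in each stretch is no result. Capitals mark the codon of the first leucine and the codons of the small residue and the aspartate. All lie within a coding exon of the GRCm38 annotation: Bcl2 at chr1:106712575-106712601 (minus strand, exon 1), Mcl1 at chr3:95659436-95659462 (plus strand, exon 1), Bax at chr7:45465997-45466023 (minus strand, exon 3), Bak1 at chr17:27022531-27022557 (minus strand, exon 4), Bcl2l11 at chr2:128147150-128147176 (plus strand, exon 3) and Bbc3 at chr7:16313773-16313799 (plus strand, exon 3).
Bcl2: CTCcgccgggctGGGGATgacttctct
Mcl1: CTGcggcgcgtgGGCGACggcgtgcag
Bax: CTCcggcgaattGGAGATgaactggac
Bak1: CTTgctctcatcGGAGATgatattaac
Bcl2l11: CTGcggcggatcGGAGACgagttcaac
Bbc3: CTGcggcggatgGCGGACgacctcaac
A glycine codon precedes the aspartate codon in 5 of these 6 stretches and an alanine codon does so in Bbc3. Of the matches not printed, that of Bad has a serine codon there, and those of Bcl2l1 and Bid have a glycine codon.

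Total counts were between 49520092 and 78704020 per library, or an estimated 12380023 to 19676005 read pairs at about 4 counts per pair. The labelled cell type was checked with marker genes. All 12 granulosa markers passed the filter on low counts, and their summed level was 9948 to 14600 CPM (counts scaled to library size with TMM factors). Oocyte markers summed to 65.5 to 96.2 CPM. Theca and stroma markers were higher in the NT4 libraries for 10 of 10 genes, of which 8 did not overlap between groups, where 13.4% of all genes tested had both NT4 libraries above both Control libraries. Their sum was 1339 and 1331 CPM for the Control libraries and 1920 and 1596 for the NT4 libraries, and none of them was at 0. Macrophage and leukocyte markers summed to 2.33 to 3.39 CPM in Control and 3.78 to 4.395 CPM in NT4.

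The question of the comparison was whether NT-4 in the medium went with other levels of survival and death genes in GCs. None of the 10 members was called at an adjusted p under 0.05 in edgeR's quasi-likelihood test, and 0% of the 19259 genes tested were. Of the members, 2 of 10 did not overlap between groups, namely Bcl2l11 and Bbc3, both lower in NT4. Over all genes tested, 26% did not overlap between groups, 12.7% with NT4 below Control and 13.4% above. At an unadjusted p under 0.05 there was 1 member (Bcl2l11), where 1.99% of all genes (383) lay. None met the study's criterion of a fold over 2 with an unadjusted p under 0.05, which 1.08% of all genes met. The DESeq2 Wald test, edgeR's exact test and limma voom also called 0 members at an adjusted p under 0.05, where they called 63 of 27099 genes (DESeq2, fitted to all genes with a count and with its own filter), 59 of 19259 and 0 of 19259, and each gave 1 member at an unadjusted p under 0.05. With 2 libraries against 2, a two-sided permutation of the groups cannot go below 0.333. All 10 members passed the filter on low counts. Their median log2 fold change of NT4 over Control was 0.09, beside 0.0045 for all genes tested, and leaving out Control 1, Control 2, NT4 1 or NT4 2 moved it to −0.00095, 0.0054, 0.14 or 0.02. Counts come from bulk RNA, so fewer cells of a type and less RNA per cell cannot be told apart.

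**Figure D1:**
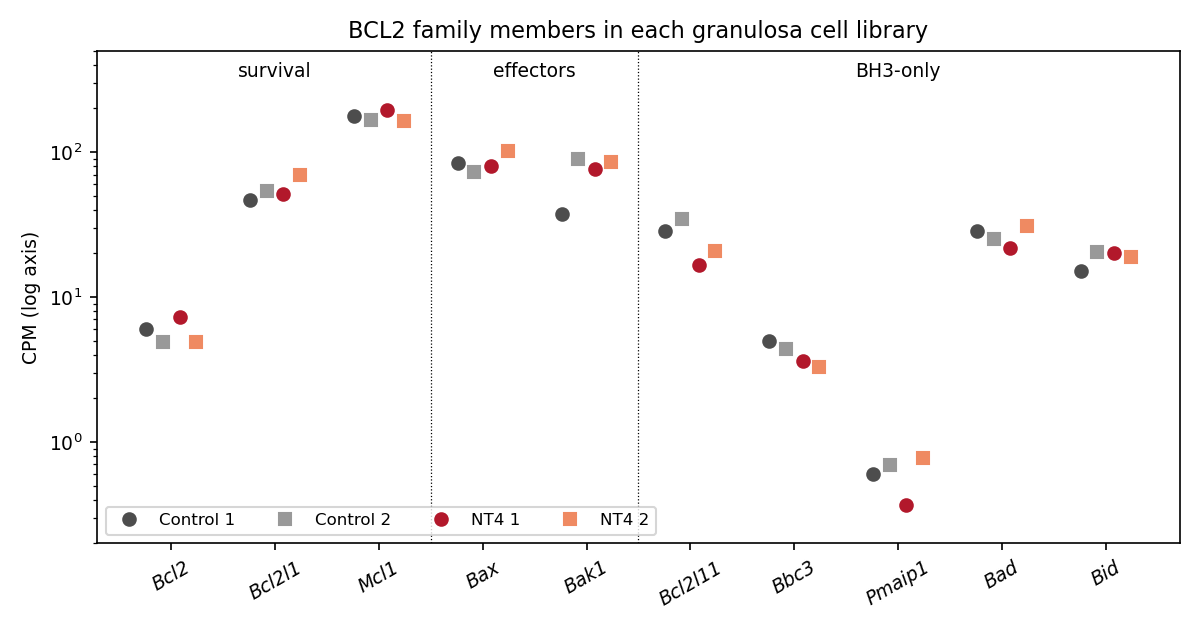
CPM of each member (vertical log axis) in Control 1, Control 2, NT4 1 and NT4 2, 1 point per library, ordered as survival, effector and BH3-only genes. Both NT4 points lie below both Control points for Bcl2l11 and Bbc3, and Control 1 lies apart from the other libraries for Bak1, at 37.2 CPM.

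Bcl2l11, the gene of BIM, was the member with the smallest p. It lies on GRCm38 chromosome 2 from 128126038 to 128162547 and shares no exon bases with another gene. Its level was 28.4 CPM in Control 1, 34.4 CPM in Control 2, 16.8 CPM in NT4 1 and 20.7 CPM in NT4 2. Both NT4 libraries were lower than both Control libraries, with a gap between 20.7 and 28.4 CPM. The mean was 31.4 ± 4.24 CPM for Control and 18.7 ± 2.77 CPM for NT4 (SD, n = 2), so the difference exceeded the spread within either group. The log2 fold change was −0.75 (SE 0.19), a level of 0.596 times that of Control, with an unadjusted p of 0.00964 and an adjusted p of 0.9999 in edgeR's quasi-likelihood test. It rested on an estimated 261 to 635 read pairs per library, and the 95% exact Poisson intervals, which cover counting error only, were 14.8 to 18.9 and 18.7 to 22.8 CPM in NT4 and 25.6 to 31.6 and 31.8 to 37.2 CPM in Control. The log2 difference was −0.76 between NT4 1 and Control 1 and −0.73 between NT4 2 and Control 2. With a library left out it ranged from −0.91 to −0.60, and the unadjusted p was 0.0637 without Control 2. The theca and stroma markers given above were higher in the same libraries, and their part in this difference was not tested.

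Bbc3, the gene of PUMA, was the other BH3-only gene without overlap between groups. It lies on chromosome 7 from 16308393 to 16318205. Its level was 5.001 CPM in Control 1, 4.39 CPM in Control 2, 3.61 CPM in NT4 1 and 3.28 CPM in NT4 2. Both NT4 libraries were lower, with group means of 4.70 ± 0.43 and 3.45 ± 0.23 CPM (SD, n = 2). The log2 fold change was −0.45 (SE 0.24), with an unadjusted p of 0.116 and an adjusted p of 0.9999 in edgeR's quasi-likelihood test. Only 56 to 81 read pairs per library lay behind it, and the exact Poisson intervals of Control 2 (3.49 to 5.46 CPM) and NT4 1 (2.71 to 4.67 CPM) overlapped, so that counting error alone spans the gap between these libraries. Across the 4 libraries, Bbc3 was the member whose profile was nearest to that of Bcl2l11, while the member nearest to Bbc3 was Mcl1. The root mean square difference of centred log2 CPM was 0.25 between Bbc3 and Mcl1 and 0.27 between Bbc3 and Bcl2l11, against 0.71 between Bcl2l11 and Bak1, the member farthest from it.

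The promoters of these 2 genes were chosen after their values were seen and are printed because both lay lower in NT4. The windows are RefSeq sequences of GRCm38.p6 that run from 250 bases before to 50 bases after the annotated start nearest the gene's 5′ end, at chr2:128125788-128126087 (plus strand) for Bcl2l11 and chr7:16309333-16309632 (plus strand) for Bbc3. Capitals mark motif matches on either strand.
Bcl2l11: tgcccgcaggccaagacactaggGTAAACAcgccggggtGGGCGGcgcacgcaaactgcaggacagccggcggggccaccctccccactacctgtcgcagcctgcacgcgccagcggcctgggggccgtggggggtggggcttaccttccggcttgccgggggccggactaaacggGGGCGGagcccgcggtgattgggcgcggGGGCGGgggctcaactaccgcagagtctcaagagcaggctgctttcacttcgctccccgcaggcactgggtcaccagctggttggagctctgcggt
Bbc3: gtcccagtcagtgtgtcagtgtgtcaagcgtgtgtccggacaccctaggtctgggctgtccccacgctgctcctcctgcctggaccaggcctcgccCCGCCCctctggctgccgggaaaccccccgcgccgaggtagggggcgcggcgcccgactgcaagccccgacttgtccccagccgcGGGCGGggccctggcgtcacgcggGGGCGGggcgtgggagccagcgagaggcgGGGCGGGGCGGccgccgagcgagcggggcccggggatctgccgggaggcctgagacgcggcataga
The motifs searched were the FOXO core GTAAACA, the GC box GGGCGG, the AP-1 site TGACTCA, the cAMP response element TGACGTCA, the E-box CACGTG, the TATA box TATAAA and the p53 response element in its 10-base form. Windows were read for 9 members. The FOXO core occurred once in Bcl2l11, in none of the other 8 windows, and in 3.65% of all 32851 windows. GC boxes numbered 3 in Bcl2l11 and 5 in Bbc3, where the last 2 share a base, and 35.7% of all windows held at least 1. None of the other 5 motifs occurred in either window, and they occurred in 5.2% (AP-1 site), 1.79% (cAMP response element), 7.15% (E-box), 13.6% (TATA box) and 8.36% (p53 element) of all windows. Among the 9 members, the p53 element occurred only in the window of Bax. The Bbc3 window, 1 of 3 for that gene, begins at 16309333, downstream of the gene's annotated 5′ end at 16308393. Bases outside the 300-base windows were not searched. GC content was 71% in Bcl2l11 and 76% in Bbc3, with a median of 52.7% over all windows. Other members were alike in this, with 76% GC and 7 GC boxes in Bcl2 and 65.7% GC and 4 GC boxes in Bad, and the 9 windows ranged from 52.3% to 76% GC. A match describes the letters of the window and not a bound site.

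The other 3 BH3-only genes overlapped between groups. Bad, whose protein is held inactive when survival kinases phosphorylate it, was at 28.4 and 25.1 CPM in Control, against 22.0 and 30.8 in NT4. Both extremes were NT4 libraries, and the log2 fold change was −0.02 (SE 0.21). Bid, which links death receptors to the mitochondrion once caspase-8 has cut it, was at 15.1 and 20.4 CPM in Control, against 20.2 and 18.8 in NT4 (log2 fold change 0.13, SE 0.20). Only Control 1 lay apart. Pmaip1, the gene of NOXA on chromosome 18 (66458533 to 66465565), was near the limit of detection. It was at 0.598, 0.692, 0.369 and 0.778 CPM in Control 1, Control 2, NT4 1 and NT4 2, from 8, 13, 6 and 15 estimated read pairs. Its exact Poisson intervals ran from 0.141 to 1.28 CPM over the libraries, and those of all 4 overlapped (log2 fold change −0.16, SE 0.59). Exons of Bad overlap those of Gpr137 by 524 bases and exons of Bid those of Bcl2l13 by 628 bases, both on the other strand. Whether counting used strand is not stated. Bcl2l13 held 6751 to 11788 counts per library against 759 to 1506 for Bid. Gpr137 held 674 to 1034 against 1368 to 2375 for Bad. The part of these overlaps in the counts of Bid and Bad was not tested.

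Among survival genes, Mcl1, whose short-lived protein many cells need without pause, had the highest CPM. It was at 178.6 CPM in Control 1, 167.0 CPM in Control 2, 194.1 CPM in NT4 1 and 163.3 CPM in NT4 2. The NT4 libraries were the highest and the lowest of the 4, and the log2 fold change was 0.05 (SE 0.14). Bcl2l1, which yields BCL-xL, was at 46.8 and 54.2 CPM in Control, against 51.1 and 69.2 in NT4. NT4 2 was the highest library while NT4 1 lay between the Control libraries, and the log2 fold change was 0.25 (SE 0.19, unadjusted p 0.240, adjusted p 0.9999 in edgeR's quasi-likelihood test). The value of Bcl2l1 was 0.02 without NT4 2 and 0.45 without NT4 1 (unadjusted p 0.0447, adjusted p 0.91 in edgeR's quasi-likelihood test). Bcl2, the founding member of the family, was at 6.06 and 4.91 CPM in Control, against 7.27 and 4.87 in NT4. The 2 libraries numbered 1 were higher than the 2 numbered 2, and the groups overlapped (log2 fold change 0.15, SE 0.28). Exons of Bcl2 overlap those of D630008O14Rik on the other strand by 558 bases, and that gene had 0 counts in each library.

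The effectors also overlapped. Bax was at 84.0 and 72.3 CPM in Control, against 79.8 and 101.9 in NT4, with NT4 2 highest and Control 2 lowest (log2 fold change 0.22, SE 0.17, unadjusted p 0.247). Its value was 0.03 without NT4 2 and 0.38 without NT4 1 (unadjusted p 0.0599). Bak1 had 37.2 CPM in Control 1 but 89.6 in Control 2, and 76.4 and 85.1 CPM in NT4 1 and NT4 2. Control 1 alone was low, and the SD of Control (37.0 CPM) exceeded the difference between the group means (63.4 and 80.7 CPM). The log2 fold change of Bak1 was 0.35 (SE 0.40). It was −0.15 without Control 1 and 1.12 without Control 2, where Bak1 met the study's criterion (unadjusted p 0.00182, adjusted p 0.326 in edgeR's quasi-likelihood test). Exons of Bax share 192 bases on the same strand with Gm45808. That gene held 3, 36, 0 and 0 counts in Control 1, Control 2, NT4 1 and NT4 2, against 4218 to 7857 for Bax. The part of this overlap in the counts of Bax was not tested. Exons of Bak1 overlap those of Ggnbp1 on the other strand by 614 bases. The 2 identifiers of Ggnbp1 held 91 and 248 counts in Control 1, against 1869 counts of Bak1 there and 4760 to 6605 in the other libraries.

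**Figure D2:**
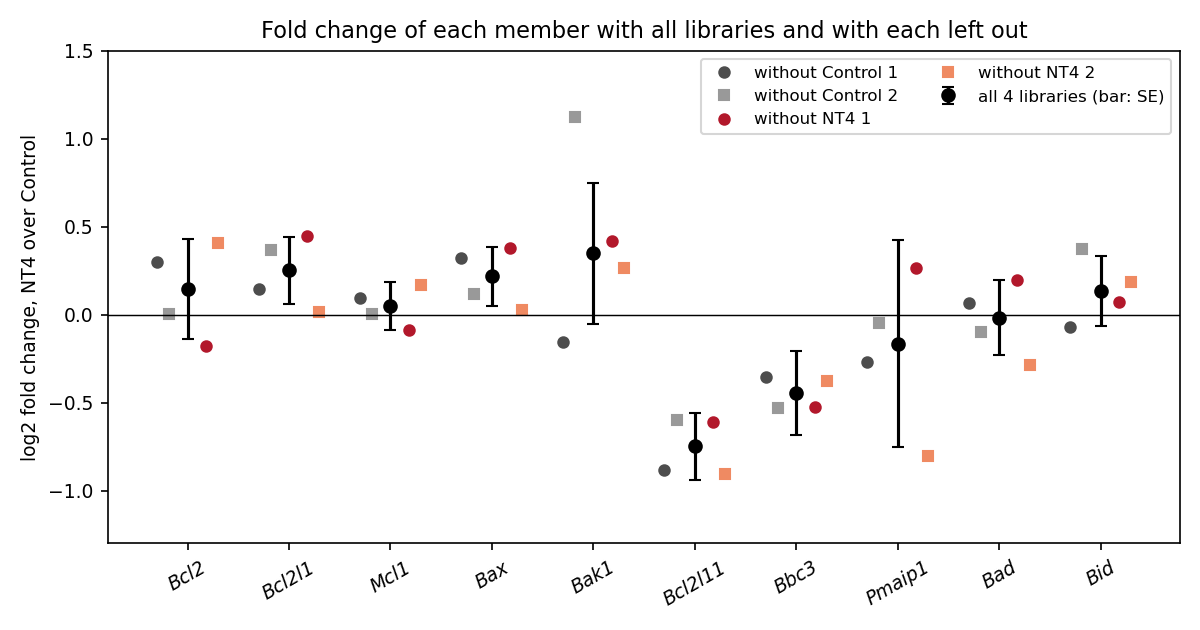
Log2 fold change of NT4 over Control (vertical axis) for each member with all 4 libraries (black, bar: SE) and with each library left out (coloured). Bcl2l11 and Bbc3 lie below 0 in each fit, from −0.91 to −0.60 and from −0.53 to −0.36 with a library left out, while Bak1 runs from −0.15 to 1.12.

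Levels of different members were compared per length, as CPM per kilobase of merged exons averaged over the 4 libraries. Bax was at 53.6 and Mcl1 at 51.4, and on this length these neighbours did not differ beyond their spread. The ratio of Mcl1 to Bax was 0.98 and 1.07 in Control 1 and 2, and 1.12 and 0.739 in NT4 1 and 2, on both sides of equality. Bak1 followed at 29.9 CPM per kilobase, then Bcl2l1 at 12.1 and Bad at 10.4, whose library values overlapped. Bid was at 5.25, Bcl2l11 at 3.12 and Bbc3 at 1.92, and the library values of Bcl2l11 overlapped those of both Bid and Bbc3. Within each single library, however, Bid was above Bcl2l11 and Bcl2l11 above Bbc3. Bcl2 was at 0.631 and Pmaip1 at 0.223. With the longest annotated transcript as length the order was the same, but Bax was at 76.8 and Mcl1 at 51.4, with Bax above Mcl1 in all 4 libraries and no overlap. Of the summed level per length of the 10 members, Bax took 27.6% to 34.9%, Mcl1 25.8% to 34.1% and Bak1 10.1% to 22.4% by library. Bcl2l11 took 2.31% and 2.58% in Control and 1.23% and 1.39% in NT4.

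**Figure D3:**
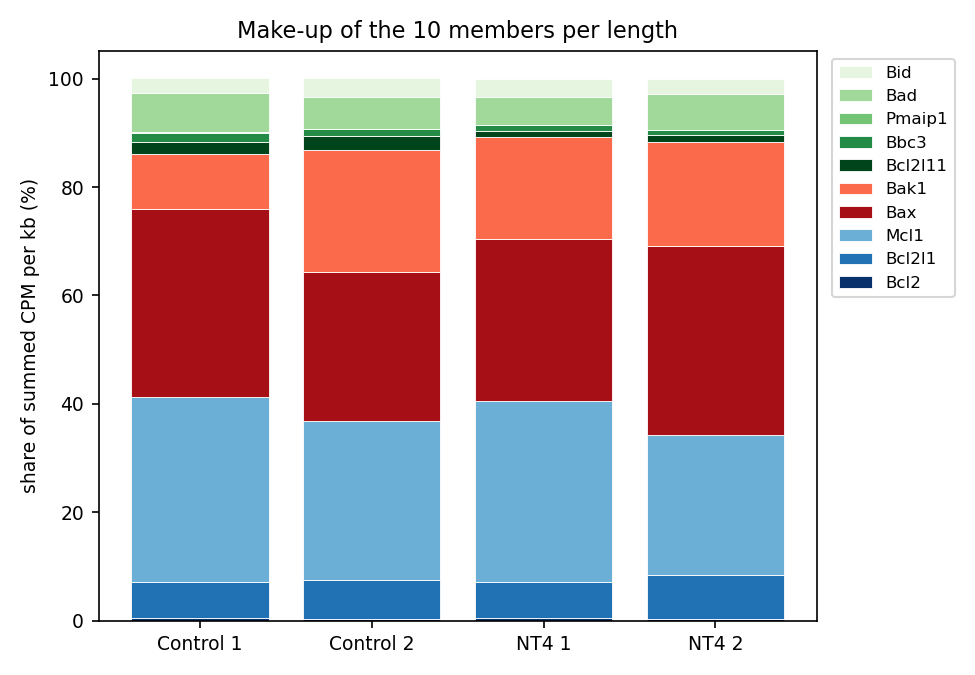
Share of each member in the summed CPM per kilobase of the 10 members (vertical axis, percent), 1 bar per library, with survival genes in blue, effectors in red and BH3-only genes in green. Bax, Mcl1 and Bak1 fill most of each bar, and Bak1 takes 10.1% in Control 1 against 18.7% to 22.4% in the other libraries.

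The balance of survival and death genes was then described within each library, where library size cancels out. Summed per length, the 3 survival genes stood to the 7 death genes at 0.699 and 0.582 in Control 1 and 2, and 0.684 and 0.521 in NT4 1 and 2. The groups overlapped. The log2 ratio was −0.65 ± 0.19 in Control and −0.75 ± 0.28 in NT4 (SD, n = 2), a difference of −0.10 that was smaller than the SD of either group. The direction was not stable. The difference was 0.036 without Control 1 and 0.10 without NT4 2, but −0.23 without Control 2 and −0.29 without NT4 1. It also depended on the weighting. With the mean log2 CPM of each class, which gives each gene the same weight, the log2 balance was 1.23 ± 0.21 in Control and 1.46 ± 0.30 in NT4, a difference of 0.23. With the effectors alone as death genes the difference was −0.18. No test was made on these sums because the members were chosen with results known.

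Ratios of single pairs, picked after the values had been seen and given without a test, differed by which death gene was set against the survival genes. The ratio of Bcl2 to Bax, often quoted as a survival index, was 0.0124 and 0.0117 in Control and 0.0157 and 0.00821 in NT4, with the NT4 libraries highest and lowest. Bcl2l1 to Bax was 0.192 and 0.258 in Control and 0.220 and 0.233 in NT4, inside the range of Control. Ratios to Bak1 overlapped too, with log2 differences of −0.44 for Mcl1 and −0.24 for Bcl2l1. Against Bcl2l11, by contrast, the ratio of each survival gene was higher in both NT4 libraries. Bcl2l11 itself was lower in both NT4 libraries while the survival genes overlapped, so these ratios mainly restate its level. The ratio of Bcl2l11 to Bax was lower in both as well (log2 difference −0.96). The share of all genes with such a ratio to Bcl2l11 was not computed. Bcl2l1 to Bcl2l11 was 2.88 in Control 1 and 2.76 in Control 2, against 5.34 in NT4 1 and 5.86 in NT4 2, a log2 difference of 0.99 with an SD of 0.05 in Control and 0.09 in NT4 (n = 2). Mcl1 to Bcl2l11 was 14.8 and 11.4 in Control and 27.2 and 18.6 in NT4 (log2 difference 0.79). Bcl2 to Bcl2l11 was 0.187 and 0.125 in Control and 0.380 and 0.206 in NT4 (log2 difference 0.87), where NT4 2 and Control 1 lay close together. All 3 ratios share the level of Bcl2l11 and are not independent of each other.

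**Figure D4:**
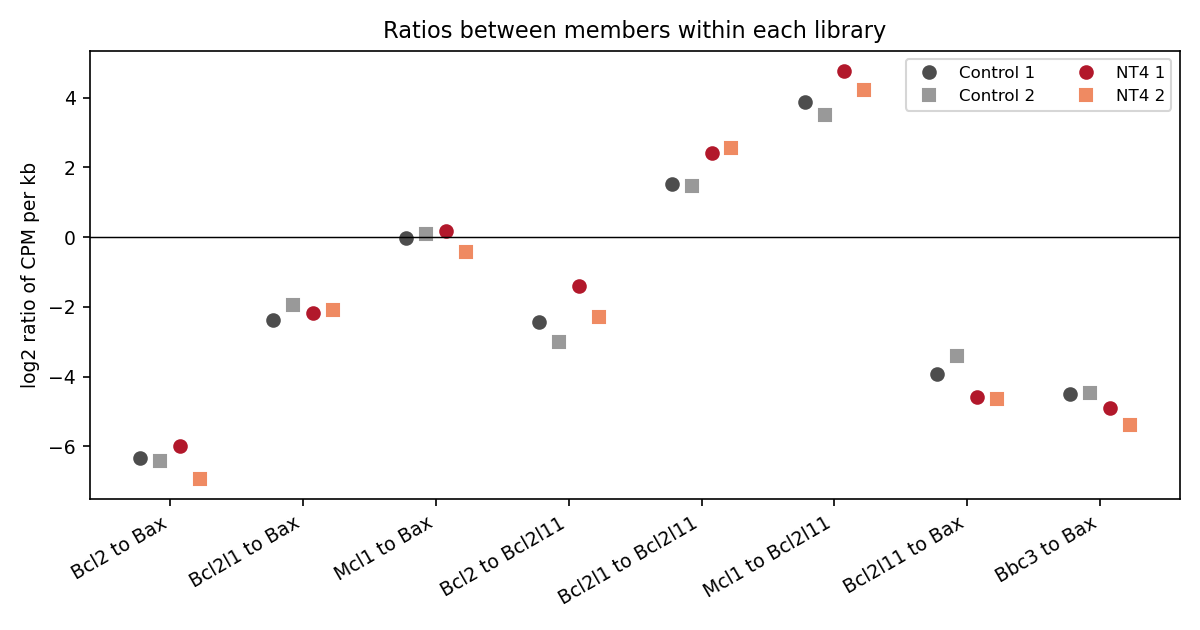
Log2 ratio of CPM per kilobase (vertical axis) for 8 pairs of members, 1 point per library. Ratios to Bax overlap between groups for the survival genes. The 3 ratios of survival genes to Bcl2l11 are higher in both NT4 libraries, and those of Bcl2l11 and Bbc3 to Bax are lower. Bcl2l11 and Bbc3 were themselves lower in both NT4 libraries, and no share over all genes was computed for such ratios.

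The rest of the family was examined from a list of 17 genes. Of these, 11 passed the filter on low counts, none was called at an adjusted p or at an unadjusted p under 0.05, and the median log2 fold change was 0.02. Both NT4 libraries were above both Control libraries for 3 of the 11 and below for none, by small margins, where 26% of all genes did not overlap in either direction, so the count is near the background. They were Bcl2l2, the gene of the survival protein BCL-w (44.7 and 44.9 CPM in Control, 49.2 and 48.8 CPM in NT4), Bnip3l, a mitophagy receptor (154.7 and 152.4 against 164.8 and 167.5 CPM), and Bmf, a BH3-only gene (5.50 and 6.10 against 6.34 and 6.31 CPM). Their log2 fold changes were 0.13, 0.11 and 0.12. Bcl2l2 shares 594 exon bases on the same strand with Gm20521, which held 362, 1272, 365 and 0 counts in Control 1, Control 2, NT4 1 and NT4 2, so its count is uncertain.

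Bok, an effector-like member, was at 70.1 and 70.9 CPM in Control, 34.2 CPM in NT4 1 and 82.8 CPM in NT4 2. NT4 1 alone was low (log2 fold change −0.27, SE 0.40). Bnip3, a relative of Bnip3l, was at 102.3 and 129.1 CPM in Control, against 99.2 and 191.7 in NT4, with NT4 2 alone high (log2 fold change 0.33, SE 0.33). Bcl2l13, Becn1 and Bcl2l12 had log2 fold changes of −0.11, 0.02 and −0.06, each smaller than its SE, and overlapped between groups. Bcl2l10, a member best known from oocytes, was at 7.77 and 4.94 CPM in Control, against 5.98 and 6.19 in NT4. Its highest and lowest libraries, Control 1 and Control 2, were also the highest and lowest in summed oocyte markers (96.2 and 65.5 CPM), whose part in the value was not tested. Bik and Hrk stayed under 1 CPM in each library. Bcl2a1a, Bcl2a1b and Bcl2a1c, near-identical survival genes of blood cells, had 0 counts in the 4 libraries, a count that leaves room for 0.152 to 0.242 CPM depending on the library (3 read pairs, counting error only). Bcl2a1d, another copy, had 6 counts in NT4 1 and 0 in the other libraries. These genes under 1 CPM were named after their values were seen.

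**Figure D5:**
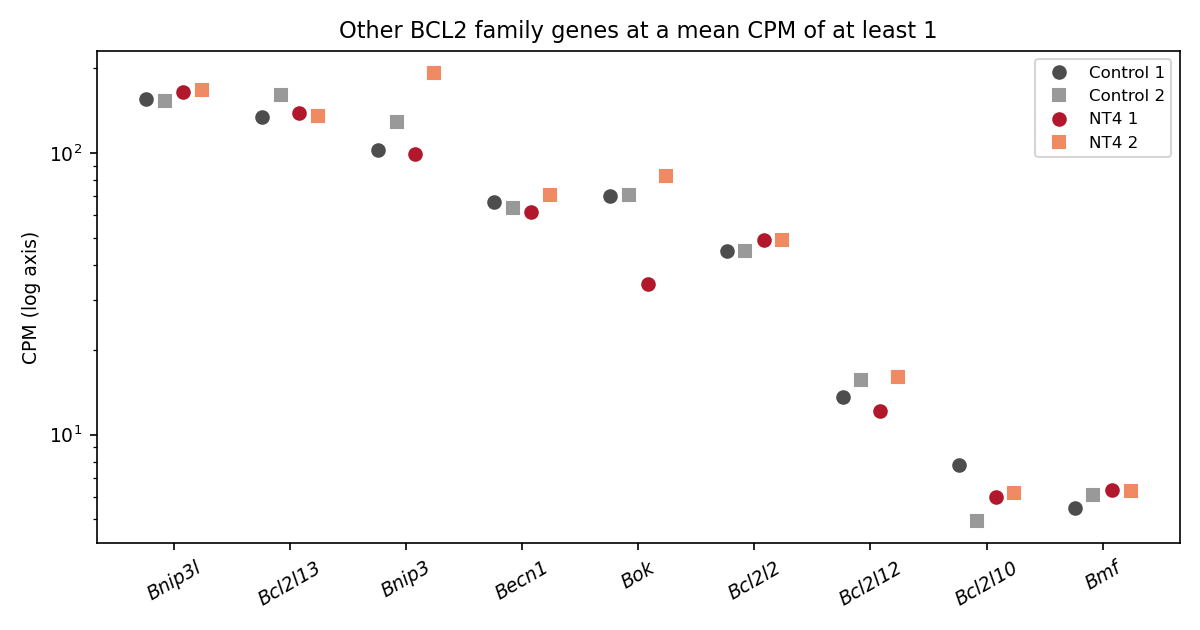
CPM (vertical log axis) of the 9 other BCL2 family genes with a mean of at least 1 CPM, 1 point per library, ordered by mean level. Bok is low in NT4 1 (34.2 CPM) and Bnip3 high in NT4 2 (191.7 CPM), while the libraries of Bcl2l2, Bnip3l and Becn1 lie close together.

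Downstream of the mitochondrion, all 14 genes of the apoptosome and caspase list were tested. None had an unadjusted p under 0.05, 11 had a value above 0 and 3 below, and the median was 0.04. The smallest p belonged to Apaf1, the scaffold of the apoptosome, at 32.8 and 52.9 CPM in Control and 31.9 and 33.5 CPM in NT4. Control 2 alone was high (log2 fold change −0.39, SE 0.25). Htra2, a protease that frees caspases from their inhibitors, was at 24.1 and 22.0 CPM in Control, against 25.2 and 28.7 in NT4 (0.22, SE 0.16). Of the 5 inhibitors of apoptosis, none had an unadjusted p under 0.05, and the smallest p belonged to Birc6 (−0.20, SE 0.15) and Birc3 (0.16, SE 0.26).

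In the death receptor list, 8 of 10 genes were tested and none had an unadjusted p under 0.05 (median 0.06). Cflar, whose protein FLIP blocks caspase-8, was at 75.8 and 69.0 CPM in Control, against 65.2 and 57.8 in NT4, lower in both NT4 libraries (log2 fold change −0.24, SE 0.13, unadjusted p 0.134). Tradd, an adaptor of the TNF receptor, had a value of 0.30 (SE 0.22). The ligands Fasl and Tnf, named after their values were seen, had 0 counts in each library. Of 12 regulators upstream of BH3-only genes, 9 were below 0 and 3 above, with a median of −0.05 and none at an unadjusted p under 0.05. Foxo3, a transcription factor known to drive Bcl2l11 and Bbc3, was at 110.7 and 118.4 CPM in Control, against 107.9 and 92.3 in NT4, lower in both NT4 libraries (−0.19, SE 0.13, unadjusted p 0.198). Foxo1 and Trp53, from the same list, were named after their values were seen. Foxo1 was at 1062 and 1270 CPM in Control, against 1035 and 1246 in NT4, and overlapped between groups (−0.03, SE 0.15). Trp53 was at 167.5 and 165.2 CPM in Control, against 162.6 and 161.3 in NT4 (−0.04, SE 0.11). The part of these factors in the levels of Bcl2l11 and Bbc3 was not tested. Atf4, a factor of the integrated stress response, was at 239.1 and 381.8 CPM in Control, against 240.9 and 227.1 in NT4, with Control 2 alone high (−0.41, SE 0.23). Among 7 mitochondrial and cytosolic partners the median was 0.00040. Vdac2, a channel that carries BAK at the membrane, was at 148.2 and 142.1 CPM in Control, against 169.7 and 162.7 in NT4 (0.20, SE 0.11, unadjusted p 0.140), and Huwe1, a ligase that marks MCL1 for decay, had a value of −0.13 (SE 0.13). The adjusted p of each gene tested in this paragraph was 0.9999 in edgeR's quasi-likelihood test.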

How the data were processed

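Bulk RNA sequencing of GCs gave 4 libraries, grouped by their GEO titles. Per the study's methods, the authors removed reads with adaptor or low-quality bases with Cutadapt, aligned them with HISAT2 (Ensembl v99, mouse) and quantified genes with StringTie. The deposited table holds expected counts as unnormalized whole numbers; how they became whole is not stated. The libraries marked strand with dUTP, but whether counting used it is not stated. The series table and the single-library files held identical counts in 4 of 4 libraries. The test was edgeR 4.0.16's quasi-likelihood F test under R 4.3.3 (TMM, default filter on low counts, group as the only term, two-sided, Benjamini-Hochberg adjustment over all 19259 genes). On simulated data the procedure recovered most altered genes, and its false calls exceeded the nominal rate. How far this carries over to these libraries was not tested. The lack of called members therefore does not show that their levels were equal. Log2 CPM used a prior count of 2. DESeq2 1.42.0 and limma 3.58.1 served as alternatives. The study says that replicates came from independent experiments, but the labels name no animals, so p-values measure the spread between these samples. Gene positions and exon lengths came from GENCODE M21 (GRCm38). The text names all 10 members, other family genes at a mean of at least 1 CPM and, from each other list of the death pathway, the 2 genes with the smallest unadjusted p. Genes outside this rule are said to be chosen after their values were seen. The members and lists were chosen with earlier results of these data known, and the BH3 pattern, promoters, motifs and pair ratios after values were seen. Low counts sat at multiples of 4 in 45.4% to 46.2% of cases, so intervals used counts divided by 4 and cover counting error only.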

Additional observations from a re-analysis of the deposited data

How the results depend on the processing

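No member was called at an adjusted p under 0.05 under any of the 14 alternatives. Bcl2l11 and Bbc3 were lower in NT4 in all 14, from −0.91 to −0.60 and −0.53 to −0.36, with smallest adjusted p of 0.226 (DESeq2) and 0.91. Bcl2l1 and Bax were above 0 in all 14 (0.02 to 0.45 and 0.03 to 0.38 with a library left out). With a library left out, taking the lone library to vary as the other group does, Bcl2 ranged from −0.18 to 0.41, Mcl1 from −0.089 to 0.17, Bak1 from −0.15 to 1.12, Pmaip1 from −0.80 to 0.26, Bad from −0.28 to 0.20 and Bid from −0.071 to 0.37, so each of these changed sign. Members meeting the study's criterion numbered 0 to 1 (Bak1 without Control 2). Without each library in turn, the members' median was −0.00095 to 0.14. The balance of survival and death genes, −0.10, was 0.23 with equal weight per gene, which weights low genes more by construction, and −0.29 to 0.10 with a library left out. The no-overlap count of 2 was the same with library totals and DESeq2 size factors. Pmaip1 did not pass a filter at 1 CPM in 2 libraries.

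Over all genes, the count at an adjusted p, 0, was 10 with no filter, 63 in DESeq2 (27099 genes, so the filter differed too) and 59 in edgeR's exact test, and 0 to 37 with a library left out (12 without Control 1, 37 without Control 2). The criterion count, 208, was 345 with no filter, 334 in DESeq2, 312 in the exact test, 87 with a filter at 1 CPM in 2 libraries, 119 with counts divided by 4 and 341 to 512 with a library left out. The cause was not tested.

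Groups share replicate numbers, but 2 numbers cannot establish a pairing. The study says that its culture groups were run in parallel, but neither its text nor the labels tie a number to an experiment. Deviations of same-numbered libraries correlated across genes at 0.14 (Pearson) and 0.26 (Spearman). With the number as a replicate block, no member was called, Bcl2l11 was at −0.75 (unadjusted p 0.00283, adjusted p 0.936 in edgeR's test), and over all genes 580 had an unadjusted p under 0.05 against 383.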
